A study of Mus musculus with 4 samples.

Results

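The 9 genes described here, Acsl4, Acsl3, Lpcat3, Alox12, Alox15, Por, Slc27a2, Sat1 and Pebp1, encode proteins that supply, esterify or oxygenate polyunsaturated fatty acids or that act on the lipoxygenases. They were taken by symbol, as a list labelled pro-ferroptotic phospholipid peroxidation genes, and all 9 were present once among the 32285 genes listed. The label does not suit every member, since Acsl3 has been linked to lipids that resist peroxidation. The cells came from CT26 tumours, grown from a mouse colon carcinoma line in Balb/c mice aged 9 weeks. CD45+ leukocytes were enriched from the tumours with magnetic beads and profiled by 10x Genomics single-cell RNA sequencing. There were 2 control libraries and 2 libraries from mice given liproxstatin-1, a radical-trapping inhibitor of ferroptosis, for 8 days. The labels do not give the vehicle or other handling of the controls, or the sex of the mice. They also do not say whether each library came from its own mouse, so the p-values describe how far these libraries spread, and that spread may be technical.

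Ferroptosis is a form of regulated cell death driven by iron-dependent peroxidation of phospholipids. ACSL4 attaches coenzyme A to arachidonic and adrenic acid, and LPCAT3 inserts the activated acids into lysophospholipids, which makes membrane phospholipids that are readily oxidised. Lipoxygenases and, through electron transfer, cytochrome P450 oxidoreductase can oxygenate these lipids, and the membrane lipid hydroperoxides are removed by GPX4. Neutrophils are short-lived granulocytes that release eicosanoids made from the same fatty acids.

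After a filter on genes detected and mitochondrial share and the removal of predicted doublets, 25730 cells remained, 3753, 6262, 7654 and 8061 in control 1, control 2, liproxstatin 1 and liproxstatin 2. Deposited total UMIs, the count of unique RNA molecules, ran from 83129874 to 168597163 per library. Cell classes were read from clusters by marker genes and each name below stands for "neutrophil-like", "monocyte-like" and so on. The 9 genes and the pathway genes counted below were left out of the genes used for clustering. The neutrophil class held 98, 442, 583 and 392 cells in the order above, with 349432 to 2048073 UMIs per library. All 9 neutrophil markers were detected in it in each library, at a summed level of 112610 to 146170 CPM (UMIs scaled to a total of 1e6 per library and class). All 8 macrophage markers were detected there too, at 944 to 1150 CPM in sum. Mononuclear phagocytes, the union of monocytes and macrophages, held 12089 cells. The median neutrophil held 2755 to 3677 UMIs and the median mononuclear phagocyte 19789 to 29459, so levels are given in CPM, as a share of a class's RNA, and where it matters also as UMIs per 100 cells. Pairs of libraries shared 4 to 22 cell barcodes, at most 0.29% of the smaller library.

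Neutrophils held more of their RNA as Por and Sat1 than every other class tested, and less as Pebp1, while Acsl3 and Lpcat3 lay below the mononuclear phagocytes. Against mononuclear phagocytes, Por was 8.07-fold and Sat1 3.76-fold higher on the scale of the fit, and Pebp1 stood at 0.36 times their level. Unscaled ratios of CPM within a library were 3.58 to 5.27 for Por, 1.75 to 2.47 for Sat1 and 0.20 to 0.21 for Pebp1. Of the 6 genes with enough counts for that test, 2 were higher and 3 lower in neutrophils. Over all 12584 genes tested in that comparison, 70.0% passed the same threshold, an adjusted p of 0.05 in edgeR's quasi-likelihood test with Benjamini-Hochberg adjustment and library as a block, so a count of 5 of 6 is near the background. The median of the 6 log2 differences was -0.45, beside -0.62 over all genes tested. Of the calls, 39.9% were higher in neutrophils, against 24.0% without normalization factors, which moved the median of all genes by 0.85 to -1.47. All 8 comparisons of neutrophils with another class use the same 4 sets of neutrophils and are not independent of each other.

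**Figure D1:**
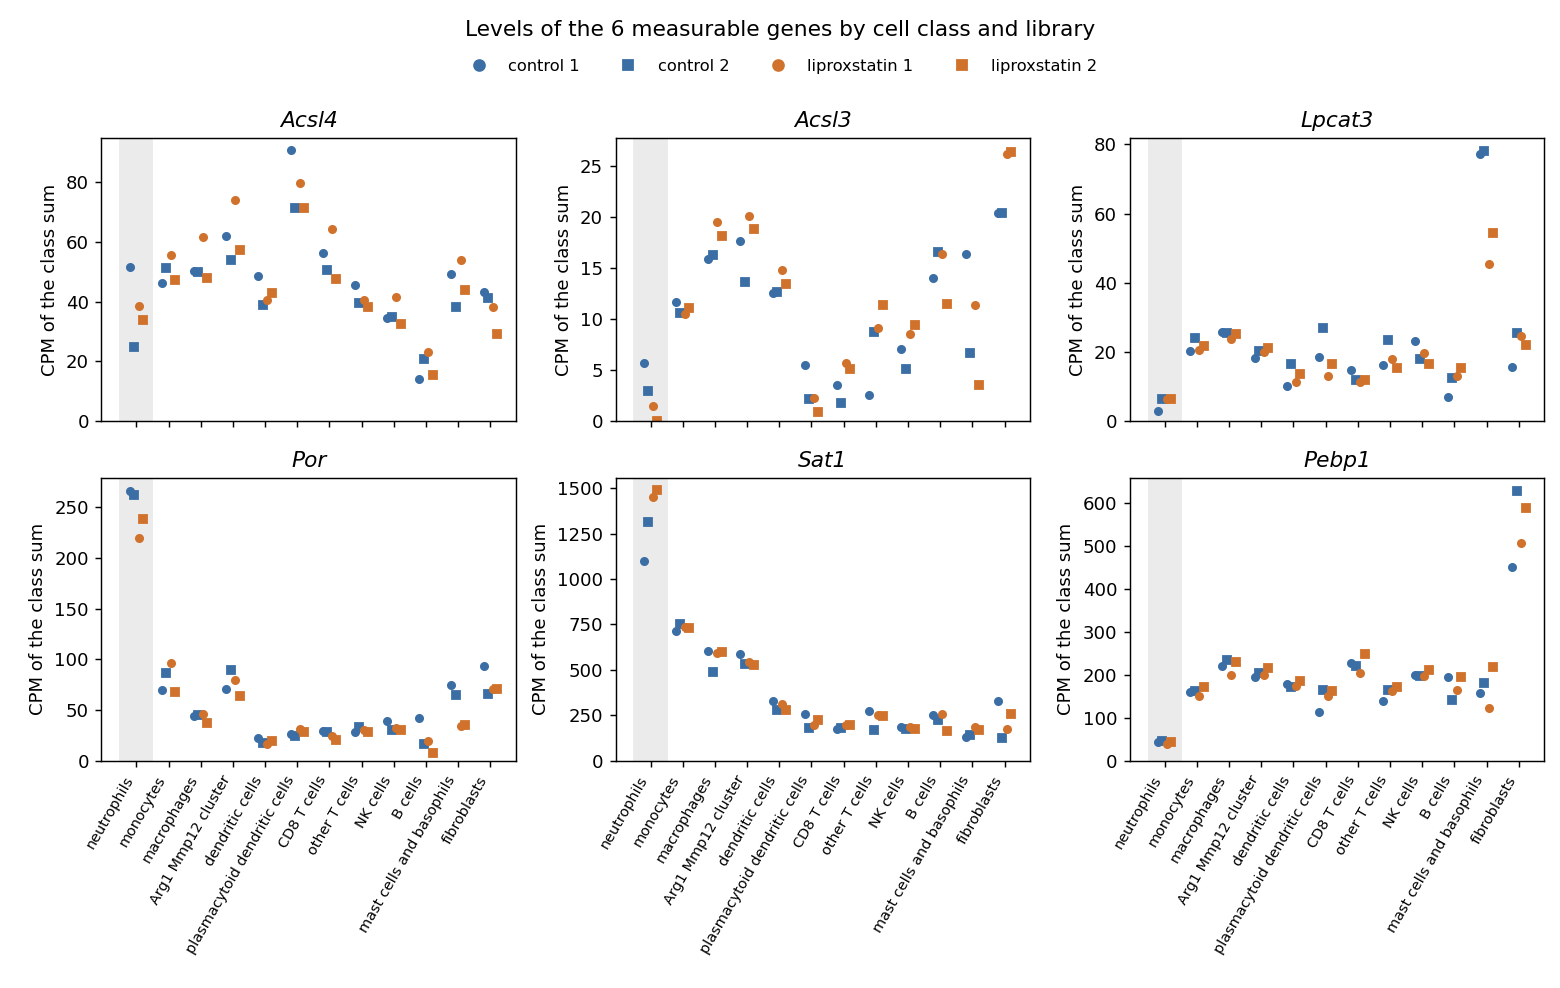
CPM on a linear axis of the 6 genes with more than isolated UMIs, by class, with 1 point per library (control and liproxstatin marked separately). Por and Sat1 are highest in neutrophils, Pebp1 and Lpcat3 lowest there, and Acsl4 in neutrophils spreads from 24.7 to 51.5 CPM.

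The genes of fatty acid uptake and activation come first. Slc27a2 encodes a fatty acid transport protein that also activates very long chain fatty acids, and lies on chromosome 2 (126552407-126588243, plus strand, GRCm38). It gave 9 UMIs in 8 of the 25730 cells, and 3 of them lay in 3 neutrophils. Neutrophils held 0, 2, 1 and 0 UMIs, or 0.578 CPM over the class (exact Poisson 95% interval 0.119 to 1.69, counting error only), and mononuclear phagocytes 4 UMIs, or 0.0125 CPM. The filter on low counts removed Slc27a2 from every test. With no filter edgeR called it higher in neutrophils than in mononuclear phagocytes (adjusted p = 9.02e-04), macrophages (0.00130), monocytes (0.0139), CD8 T cells (0.0152) and NK cells (0.0282), but not than in dendritic cells (0.0994), other T cells (0.402) or B cells (0.646). These calls rest on 3 neutrophil UMIs.

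Acsl4 (chromosome X, 142317993-142390535, minus strand) was detected in every class. Its level in neutrophils was 51.5 CPM in control 1, 24.7 in control 2, 38.6 in liproxstatin 1 and 33.9 in liproxstatin 2, resting on 18, 42, 79 and 37 UMIs. Control 1 was the highest of the 4 and control 2 the lowest, and together they overlapped every class but plasmacytoid dendritic cells and B cells and a cluster led by Mmp12 and Arg1. Plasmacytoid dendritic cells were highest at 78.3 ± 9.16 CPM (SD, n = 4 libraries), then the Mmp12 cluster at 61.8 ± 8.73, CD8 T cells at 54.6 ± 7.26, macrophages at 52.5 ± 6.16 and monocytes at 50.1 ± 4.32. Below them stood mast cells and basophils at 46.2 ± 6.77 CPM, dendritic cells at 42.7 ± 4.29, other T cells at 40.9 ± 3.33, fibroblasts at 37.9 ± 6.21, neutrophils at 37.2 ± 11.2, NK cells at 35.9 ± 3.96 and B cells at 18.3 ± 4.27. Neighbours in this order differed by no more than their SDs, except that plasmacytoid dendritic cells stood above the Mmp12 cluster and B cells below NK cells by more than the larger SD of each pair.

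The sign of the Acsl4 difference depended on the scaling between classes. With normalization factors (TMM), Acsl4 was 0.23 ± 0.20 (SE) log2 units higher in neutrophils than in mononuclear phagocytes, which did not pass the test (edgeR adjusted p = 0.283). It was called higher against dendritic cells (0.61 ± 0.21, edgeR adjusted p = 0.00488; 0.0554 without liproxstatin 1, 0.150 without liproxstatin 2, 0.669 with no filter and 0.0741 in DESeq2), other T cells (0.79 ± 0.21) and NK cells (0.90 ± 0.21), and against monocytes only without control 2 (0.42, edgeR adjusted p = 0.0336). Without the factors the 7 Acsl4 differences that could be fitted ran from -0.66 against CD8 T cells to -0.07 against NK cells, all of the opposite sign, and Acsl4 was then called lower than in mononuclear phagocytes (edgeR adjusted p = 6.37e-04), monocytes (0.00146), macrophages (4.98e-04) and CD8 T cells (1.72e-04). As UMIs per 100 cells Acsl4 stood at 9.44 to 18.4 in neutrophils and 103 to 158 in mononuclear phagocytes. No direction is therefore given for Acsl4 against these 7 classes. Against B cells Acsl4 was too low in count for the filter. Its CPM was higher in neutrophils in 4 of 4 libraries, by 1.19 to 3.67 times, and the 3 alternatives that could fit it gave 1.56 to 2.09 log2 units (edgeR adjusted p from 3.18e-06 to 0.00332). Per cell it was higher in 1 of the 4.

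Within the neutrophils, a finer clustering separated cells led by Cstdc4 and G0s2 (55, 279, 406 and 240 cells) from cells led by Retnlg (43, 163, 177 and 152). Acsl4 stood at 71.4, 25.1, 43.9 and 39.4 CPM in the former and at 26.1, 23.9, 26.8 and 25.5 CPM in the latter, in the library order above. These values rested on 14, 27, 62 and 26 UMIs in the Cstdc4 cells and on 4, 15, 17 and 11 in the Retnlg cells. The Cstdc4 cells were higher in all 4 libraries, by a small margin in control 2. This pair was looked at after its values were seen and was not tested. Por and Sat1 overlapped between these cells.

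Acsl3 (chromosome 1, 78657825-78707743, plus strand, overlapped on the same strand by Utp14b) activates long chain fatty acids including monounsaturated ones, and has been linked to lipids that resist peroxidation. In neutrophils it gave 2, 5, 3 and 0 UMIs, or 5.72, 2.94, 1.46 and 0 CPM. Mononuclear phagocytes held 14.9, 15.3, 16.7 and 16.2 CPM, above the neutrophils in all 4 libraries. The difference was -2.17 ± 0.44 log2 units (edgeR adjusted p = 2.50e-06).

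Acsl3 was also lower in neutrophils than in monocytes (-1.63 ± 0.45), macrophages (-2.29 ± 0.44), dendritic cells (-1.87 ± 0.47) and other T cells (-1.12 ± 0.53, edgeR adjusted p = 0.0433). The call against other T cells was lost without liproxstatin 2 (-0.58, edgeR adjusted p = 0.374) and in DESeq2 (adjusted p = 0.187). It was also lost with doublets kept (edgeR adjusted p = 0.0560), at resolution 2 (0.0922) and with a marker gate per cell (0.0651). Against CD8 T cells (-0.06 ± 0.56) and NK cells (-0.93 ± 0.52) Acsl3 did not pass the test. Against NK cells it did without control 1 (edgeR adjusted p = 0.0466) or control 2 (0.0294). It also passed there without normalization factors (-1.91, edgeR adjusted p = 9.76e-05) and with no filter (0.0356). The same held at resolution 2 (0.0137), with less free RNA (0.0380) and with the marker gate (0.0483). Fibroblasts were highest at 23.3 ± 3.40 CPM, followed by the Mmp12 cluster at 17.5 ± 2.79 and macrophages at 17.5 ± 1.66. B cells at 14.6 ± 2.38 CPM, dendritic cells at 13.4 ± 1.03, monocytes at 10.98 ± 0.53 and mast cells and basophils at 9.46 ± 5.62 came next. The order closed with other T cells at 7.96 ± 3.74, NK cells at 7.57 ± 1.89, CD8 T cells at 4.04 ± 1.74, plasmacytoid dendritic cells at 2.70 ± 1.95 and neutrophils at 2.53 ± 2.44. Steps between neighbours were larger than either SD from fibroblasts to the Mmp12 cluster, from macrophages to B cells, from dendritic cells to monocytes and from NK cells to CD8 T cells, and not elsewhere. Free RNA, which droplets take up from lysed cells, was estimated at 5.19 to 6.83% of all neutrophil UMIs. By this estimate it could account for 13.4 to 65.4% of the Acsl3 UMIs in neutrophils per library with any.

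Among the phagocyte clusters, Acsl3 stood at 17.1 to 25.3 CPM over the libraries in macrophages led by Lyve1 and Cd163, which overlapped macrophages led by Hist1h2ap (17.5 to 20.5) and the Mmp12 cluster (13.6 to 20.1). Lpcat3 stood at 26.1 to 33.3 CPM in the Lyve1 macrophages and 24.8 to 26.1 CPM in macrophages led by Cxcl9, a gap between means no larger than the spread. Monocytes led by Chil3 and Hp were lowest in mean Acsl3, at 5.66 to 9.46 CPM, beside 9.14 to 12.2 CPM in monocytes led by Rsad2.

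Lpcat3 (chromosome 6, 124663027-124704418, plus strand, overlapped on the opposite strand by Emg1) encodes the acyltransferase that places arachidonate in phospholipids. Neutrophils held 2.86, 6.46, 6.35 and 6.41 CPM, on 1, 11, 13 and 7 UMIs, and mononuclear phagocytes 24.5, 25.3, 22.7 and 24.3 CPM. Each neutrophil value was below each value of the other 11 classes and clusters. In the fit Lpcat3 was lower than in mononuclear phagocytes by -1.12 ± 0.31 log2 units (edgeR adjusted p = 5.36e-04), and also than in monocytes (-0.997 ± 0.30) and macrophages (-1.14 ± 0.31). The differences from dendritic cells (-0.21 ± 0.36), CD8 T cells (-0.03 ± 0.35), other T cells (-0.58 ± 0.35) and NK cells (-0.65 ± 0.34) did not pass. Without normalization factors all 4 did, at -1.13 (edgeR adjusted p = 0.00102), -0.98 (0.00278), -1.63 (2.22e-06) and -1.62 (1.98e-07). With no filter Lpcat3 passed against other T cells (-1.06, edgeR adjusted p = 0.00314) and NK cells (-0.89, 0.0103), and against NK cells it also passed in DESeq2 (adjusted p = 0.0289), at resolution 2 (edgeR adjusted p = 0.00201) and with less free RNA (0.0173). Free RNA could account for 17.5 to 44.1% of these neutrophil UMIs. Mast cells and basophils were highest at 77.1, 78.0, 45.4 and 54.4 CPM, above all other classes in each library. These values rested on 33, 47, 16 and 31 UMIs. Both control libraries lay above both liproxstatin libraries, but treatment was not tested in this class. In the classes tested for treatment, 32.5% (B cells) to 47.8% (mononuclear phagocytes) of all genes did not overlap between the groups. Next in level were macrophages at 25.1 ± 0.96 CPM, fibroblasts at 22.0 ± 4.49, monocytes at 21.6 ± 1.71 and the Mmp12 cluster at 19.9 ± 1.23. NK cells (19.4 ± 2.78 CPM), plasmacytoid dendritic cells (18.8 ± 5.96) and other T cells (18.3 ± 3.54) were within the spread of their neighbours, and dendritic cells (12.9 ± 2.73), CD8 T cells (12.5 ± 1.61) and B cells (11.97 ± 3.54) were within that of each other.

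The lipoxygenases were rare. Alox12 (chromosome 11, 70241457-70255353, minus strand) encodes the 12-lipoxygenase of platelets. Alox15 (70344152-70352031 on the same strand) lies 88798 bases away and encodes the 12/15-lipoxygenase, which oxygenates arachidonate also within phospholipids. Alox12 gave 24 UMIs in 18 cells and none in neutrophils, where 0 of 5192728 UMIs allows a level of up to 0.578 CPM (3 counts over the class; counting error only). Its level in mononuclear phagocytes was 0.0438 CPM, under that limit, so Alox12 could not be compared at this depth.

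Alox15 gave 148 UMIs in 63 of the 25730 cells, and 107 of them lay in 31 mononuclear phagocytes. Neutrophils held 0, 0, 0 and 3 UMIs, the 3 in a single cell of liproxstatin 2. Mononuclear phagocytes held 64 UMIs in control 1, 24 in control 2, 15 in liproxstatin 1 and 4 in liproxstatin 2. A pair of cells in control 1 carried 29 and 24 of its UMIs, which left 11 in the rest, and a single cell in liproxstatin 1 carried 12 of its 15. The groups did not overlap, yet their distance rested on a handful of cells.

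Among the cells with no class name, Alox15 was concentrated in 1 cluster of 108 cells led by Camp, Ngp and Lcn2, of which 56.5% were predicted doublets. Counting doublets too, it held 37 of the 180 Alox15 UMIs, in 26 cells, at 29.3 CPM against 0.2497 CPM in all other cells. Of those 26 cells, 16 had a UMI of Ccr3, 4 of Siglecf and 2 of Il5ra, receptors known from eosinophils, and none had one of Epx or Prg2, eosinophil granule proteins. The same cells also carried RNA of other types. Of the 9 neutrophil markers, S100a8, Il1r2 and Ly6g were in 0 of the 26, Csf3r in 1, S100a9 in 2, Cxcr2, G0s2 and Hdc in 6 each and Retnlg in 13, against 35 of the 82 cells without Alox15 for Retnlg and 64 of 82 for S100a8. The 6 markers of mast cells and basophils were in 3 to 7 of the 26 cells each (Gata2 in 7, Mcpt8 in 5), and the 8 macrophage markers in 1 to 16 (Apoe in 16, Adgre1 in 13). The cluster was chosen after its values were seen and was not tested. Without the predicted doublets it held 18 Alox15 UMIs in 14 of 47 cells.

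Por (chromosome 5, 135670033-135735326, plus strand, overlapped on the opposite strand by the annotated transcripts Gm43091 and Gm16061) encodes the flavoprotein that passes electrons from NADPH to cytochromes P450 in the endoplasmic reticulum. Sat1 (chromosome X, 155213132-155216449, minus strand) encodes spermidine/spermine acetyltransferase, the rate-limiting enzyme of polyamine catabolism, whose activation has been reported to raise ALOX15. Pebp1 (chromosome 5, 117282654-117287625, minus strand) encodes a scaffold that binds 15-lipoxygenases and directs them to phospholipids. All 9 genes are protein coding in the annotation used (GENCODE M21).

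Windows of 250 bases upstream of the annotated starts were available for 8 of the 9 genes, from RefSeq on GRCm38.p6. There was none for Alox15. The windows of the 2 genes that were higher in neutrophils and of the 3 that were lower than in mononuclear phagocytes are shown, as far as they lie outside exons, from 5′ to 3′ on the strand of the gene. Capitals mark CCAAT or its reverse complement ATTGG.
Sat1: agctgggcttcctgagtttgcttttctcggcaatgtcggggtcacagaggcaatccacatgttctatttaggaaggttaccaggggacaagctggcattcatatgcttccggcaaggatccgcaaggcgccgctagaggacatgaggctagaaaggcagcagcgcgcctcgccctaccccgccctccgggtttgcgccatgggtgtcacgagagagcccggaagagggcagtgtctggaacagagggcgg
Por: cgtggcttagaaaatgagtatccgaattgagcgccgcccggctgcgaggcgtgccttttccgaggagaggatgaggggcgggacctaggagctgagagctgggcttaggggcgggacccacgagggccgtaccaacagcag
Pebp1: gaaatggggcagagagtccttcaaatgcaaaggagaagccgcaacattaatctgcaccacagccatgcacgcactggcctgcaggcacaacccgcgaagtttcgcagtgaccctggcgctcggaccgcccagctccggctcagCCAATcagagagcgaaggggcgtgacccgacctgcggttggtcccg
Acsl3: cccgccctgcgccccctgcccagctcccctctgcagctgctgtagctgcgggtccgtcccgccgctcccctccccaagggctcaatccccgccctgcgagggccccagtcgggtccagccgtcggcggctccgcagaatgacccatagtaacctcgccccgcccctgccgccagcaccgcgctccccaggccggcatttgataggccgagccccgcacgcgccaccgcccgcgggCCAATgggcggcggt
Lpcat3: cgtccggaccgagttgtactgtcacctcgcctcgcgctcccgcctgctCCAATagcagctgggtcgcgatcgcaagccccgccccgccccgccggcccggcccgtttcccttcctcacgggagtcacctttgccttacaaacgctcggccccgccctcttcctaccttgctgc
The positions are chrX:155216450-155216699 for Sat1 and chr5:117287626-117287814 for Pebp1, both on the minus strand, and chr5:135688895-135689035 for Por, chr1:78657575-78657824 for Acsl3 and chr6:124662854-124663026 for Lpcat3, on the plus strand. The RefSeq start behind the Por window lies inside the gene span given above. CCAAT or ATTGG was in the windows of 3 of the 8 genes, Acsl3, Pebp1 and Lpcat3 (3 matches in the last, 1 of them in the stretch shown), and in 33.9% of all 32851 windows of this length. It was absent from those of Sat1, Por, Acsl4, Alox12 and Slc27a2. GAGGAAG or CTTCCTC, a PU.1 motif, was in the Lpcat3 window alone among the 8 and in 10.6% of all windows. A C/EBP motif, TTGCNNAA, was in none of the 8 and in 9.56% of all, and an antioxidant response element, TGACNNNGC, in none and in 10.2%, both strands searched. The CCAAT box was picked after the levels were known, and a match describes letters in a window, not a bound site.

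Por stood at 266, 262, 220 and 239 CPM in neutrophils and at 50.6, 52.5, 61.5 and 45.8 CPM in mononuclear phagocytes. Each neutrophil library lay above every library of the other 11 classes and clusters. The fitted difference was 3.01 ± 0.18 log2 units against mononuclear phagocytes (edgeR adjusted p = 4.45e-62). Over the 8 comparisons it ran from 2.44 ± 0.12 against monocytes to 4.55 ± 0.21 against dendritic cells, all past the test. Unscaled ratios of CPM within a library were smaller, 3.58 to 5.27 against mononuclear phagocytes and 11.6 to 15.4 against dendritic cells. Counted per cell, Por was not above the mononuclear phagocytes, with 94.9, 101, 77.4 and 66.6 UMIs per 100 neutrophils against 154, 165, 157 and 99.0. Against dendritic cells it was 1.83 to 2.87 times higher per cell as well. Free RNA could account for 0.995 to 1.66% of the Por UMIs in neutrophils.

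Behind neutrophils, Por was highest in monocytes at 80.4 ± 13.7 CPM, the Mmp12 cluster at 76.0 ± 11.1 and fibroblasts at 75.3 ± 12.2, which did not differ beyond their spread. Mast cells and basophils at 52.2 ± 20.7 CPM, macrophages at 43.3 ± 3.94, NK cells at 33.1 ± 4.10 and other T cells at 30.3 ± 2.29 followed, with steps beyond the larger SD above mast cells and basophils and above NK cells. Plasmacytoid dendritic cells held 27.8 ± 2.87 CPM, CD8 T cells 25.7 ± 4.22, B cells 21.5 ± 14.6 and dendritic cells 19.0 ± 2.81, each within the spread of its neighbours.

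**Figure D2:**
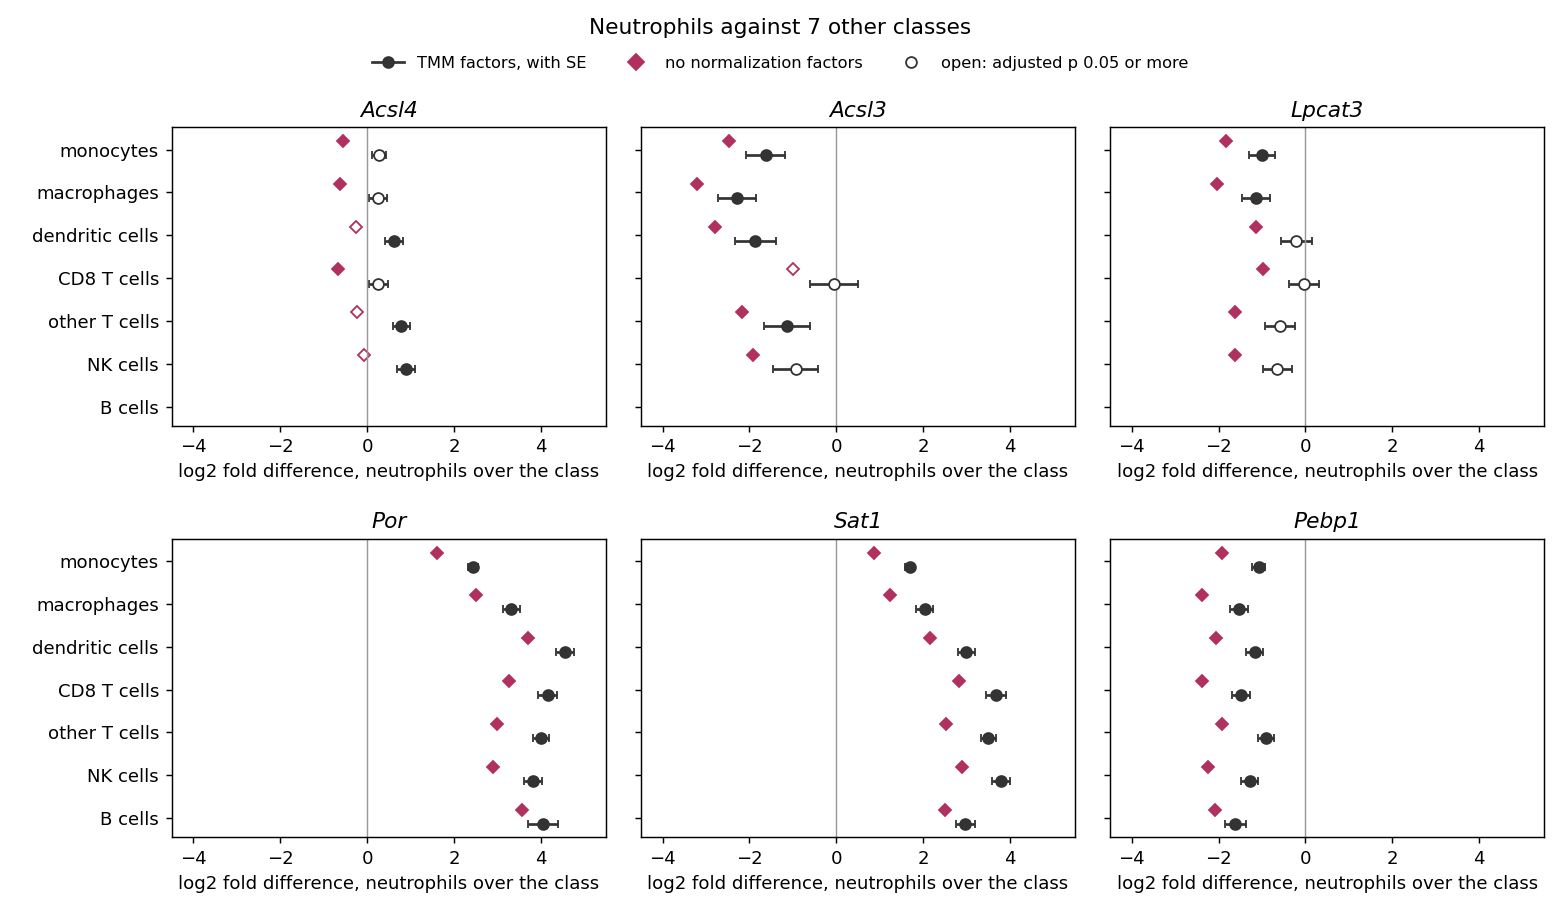
Fitted log2 difference of neutrophils from each other class (points, with SE bars; 4 libraries, library as a block), with and without normalization factors. Por, Sat1 and Pebp1 keep their sign in every class, and Acsl4 changes sign without the factors. It goes from 0.28 to -0.56 against monocytes and from 0.25 to -0.62 against macrophages.

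Sat1 stood at 1099, 1314, 1449 and 1489 CPM in neutrophils and at 628, 533, 636 and 635 CPM in mononuclear phagocytes. All neutrophil libraries lay above all libraries of the other classes. The difference was 1.91 ± 0.18 log2 units (edgeR adjusted p = 6.46e-25), and over the 8 comparisons it ran from 1.69 ± 0.11 against monocytes to 3.80 ± 0.21 against NK cells, all past the test. Per cell the order was reversed against mononuclear phagocytes, with 392, 506, 509 and 415 UMIs per 100 neutrophils against 1914, 1673, 1620 and 1374. The ratio per cell was 0.523 to 0.886 against dendritic cells and 1.19 to 1.76 against CD8 T cells. Free RNA could account for 1.82 to 2.77% of the Sat1 UMIs in neutrophils.

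After neutrophils, Sat1 ranked highest in monocytes (734 ± 15.7 CPM), macrophages (570 ± 55.4) and the Mmp12 cluster (547 ± 26.6), the latter pair within its spread. Dendritic cells held 301 ± 25.8 CPM, other T cells 236 ± 44.3, B cells 225 ± 43.0, fibroblasts 221 ± 88.2 and plasmacytoid dendritic cells 213 ± 34.5, of which the last 4 were within their spread. CD8 T cells at 189 ± 11.2 CPM, NK cells at 180 ± 6.53 and mast cells and basophils at 156 ± 24.5 closed the order, again within their spread.

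The monocyte class hid a split in Sat1. Its cluster led by Chil3 and Hp (1270 cells) also had Ace and Adgre4, markers of nonclassical monocytes, among its leading genes. This cluster held 1434.5, 1569.0, 1286.0 and 1571.2 CPM of Sat1, within or above the range of neutrophils, while the other phagocyte clusters lay between 433 and 756 CPM. The same cells held more Por (109 to 128 CPM) than the other phagocyte clusters (up to 94.99) and less Pebp1 (92.5 to 102 CPM against 159 to 250). Their median cell held 10448 to 14598 UMIs, and Sat1 reached 1617 to 2241 UMIs per 100 cells, above neutrophils. Neutrophil markers summed to 483 to 1267 CPM there, beside 112610 to 146170 in neutrophils, and the part of neutrophil RNA in these values was not tested. Markers of nonclassical monocytes, the list that scored highest in this cluster, summed to 383 to 831 CPM. The cluster was singled out after its values were seen and has no test.

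Pebp1 stood at 42.9, 46.4, 39.1 and 43.0 CPM in neutrophils against 207, 223, 186 and 215 CPM in mononuclear phagocytes. Neutrophils were the lowest of all classes in every library. The difference was -1.45 ± 0.19 log2 units (edgeR adjusted p = 1.31e-13), and it ran from -0.91 ± 0.19 against other T cells to -1.61 ± 0.24 against B cells, all 8 past the test. Per cell the gap was wider, with 15.3, 17.9, 13.7 and 11.99 UMIs per 100 neutrophils against 632, 698, 473 and 465. Free RNA could account for 27.3 to 33.3% of the Pebp1 UMIs found in neutrophils. Fibroblasts were highest, at 544 ± 80.5 CPM. CD8 T cells (225 ± 18.1 CPM), macrophages (222 ± 15.3), the Mmp12 cluster (204 ± 8.42), NK cells (201 ± 6.64), dendritic cells (178 ± 6.78), B cells (174 ± 26.9), mast cells and basophils (170 ± 40.7), monocytes (162 ± 8.26), other T cells (159 ± 13.7) and plasmacytoid dendritic cells (148 ± 23.3) formed a close series, with steps beyond the larger SD above the Mmp12 cluster and above dendritic cells.

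**Figure D3:**
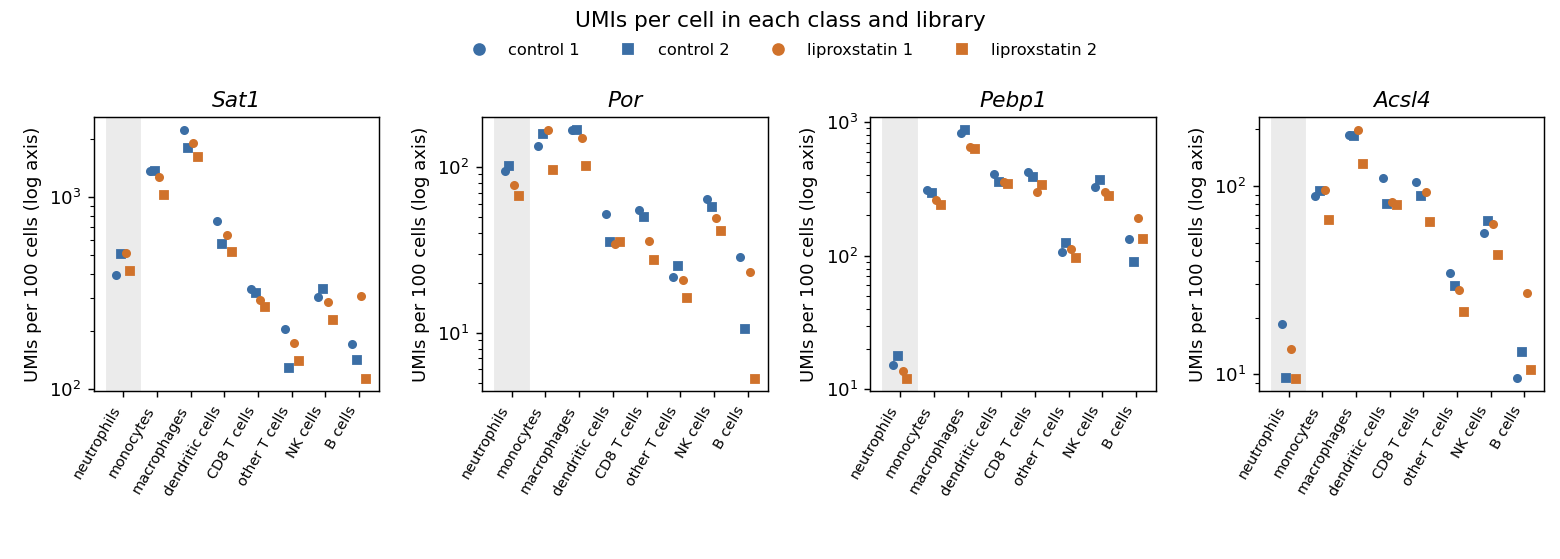
UMIs per 100 cells of Sat1, Por, Pebp1 and Acsl4, by class, 1 point per library, on a log axis. Per cell, Sat1 in neutrophils (392 to 509) lies below monocytes and macrophages although its CPM is higher. Within a library it was 0.287 to 0.405 times the monocyte value and 0.175 to 0.281 times the macrophage value.

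The other 7 comparisons had similar counts. Of 6 genes tested, neutrophils had 2 higher and 3 lower than monocytes, where 72.1% of all genes tested passed, 30.7% higher and 41.4% lower. Against macrophages the counts were again 2 and 3 (72.4% of all genes, 29.0% higher and 43.4% lower). They had 3 higher and 2 lower than dendritic cells (77.5%, 34.4% higher and 43.1% lower) and than other T cells (78.4%, 34.6% and 43.9%). Against CD8 T cells 2 were higher and 1 lower (79.6%, 33.5% and 46.1%), and against NK cells 3 and 1 (78.9%, 33.5% and 45.4%). Of 3 genes tested against B cells, 2 were higher and 1 lower (77.3%, 37.8% and 39.5%). The genes higher were Por and Sat1 throughout, with Acsl4 as the third where 3 are given. Without normalization factors the counts were 2 higher and 3 lower against dendritic cells, CD8 T cells, other T cells and NK cells, and 2 higher and 4 lower against monocytes and macrophages, with B cells at 2 and 1 as before. Since most genes differed between these cells, the counts say nothing particular about the 9 genes.

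Liproxstatin-1 called none of the 9 genes in any of the 9 classes. In neutrophils 4 of the 9 had enough counts for the test, and 0 passed it in edgeR's quasi-likelihood test, 0 had an unadjusted p under 0.05 and 0 passed in DESeq2. Over all 5837 genes tested in neutrophils 0.223% passed. In mononuclear phagocytes 7 were tested, with 0 called by either tool and 0 under an unadjusted p of 0.05, where 1.8% of 14357 genes passed. The members' median was 0.01 in neutrophils, beside -0.01 over all genes, and 0.11 in mononuclear phagocytes, beside 0.00. In mononuclear phagocytes Acsl4 stood at 0.16 ± 0.10 log2 units, Acsl3 and Sat1 at 0.18 ± 0.09 and 0.18 ± 0.11, Por at 0.11 ± 0.12, Lpcat3 at -0.03 ± 0.09 and Pebp1 at -0.05 ± 0.10. The groups did not overlap there for Acsl3 and Sat1, higher under liproxstatin, and for Lpcat3 and Alox15, lower, where 47.8% of all genes tested did not overlap. The make-up of this union differed between the groups. Monocytes were 625 of 1669 and 932 of 3097 cells in the controls, and 1530 of 3370 and 1663 of 3953 under liproxstatin. Fitted alone, monocytes gave Por at 0.13 ± 0.18 and Sat1 at 0.06 ± 0.11. Macrophages gave -0.07 ± 0.10 and 0.16 ± 0.12. The part of the make-up in the values of the union was not tested.

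In neutrophils, Sat1 was lower in both control libraries (1099 and 1314 CPM) than in both liproxstatin libraries (1449 and 1489), a difference of 0.26 ± 0.20 log2 units (SE, n = 2 against 2 libraries; edgeR adjusted p = 0.822). Por was higher in both controls (266 and 262 CPM) than under liproxstatin (220 and 239), at -0.22 ± 0.20 (edgeR adjusted p = 0.880). The other 2 overlapped between the groups, Acsl4 at 0.18 ± 0.34 (edgeR adjusted p = 0.958; -0.49 without control 2 and -0.03 without liproxstatin 1) and Pebp1 at -0.17 ± 0.27 (0.947). Groups without overlap in 2 of 4 genes compare with 35.6% of all genes tested in neutrophils.

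**Figure D4:**
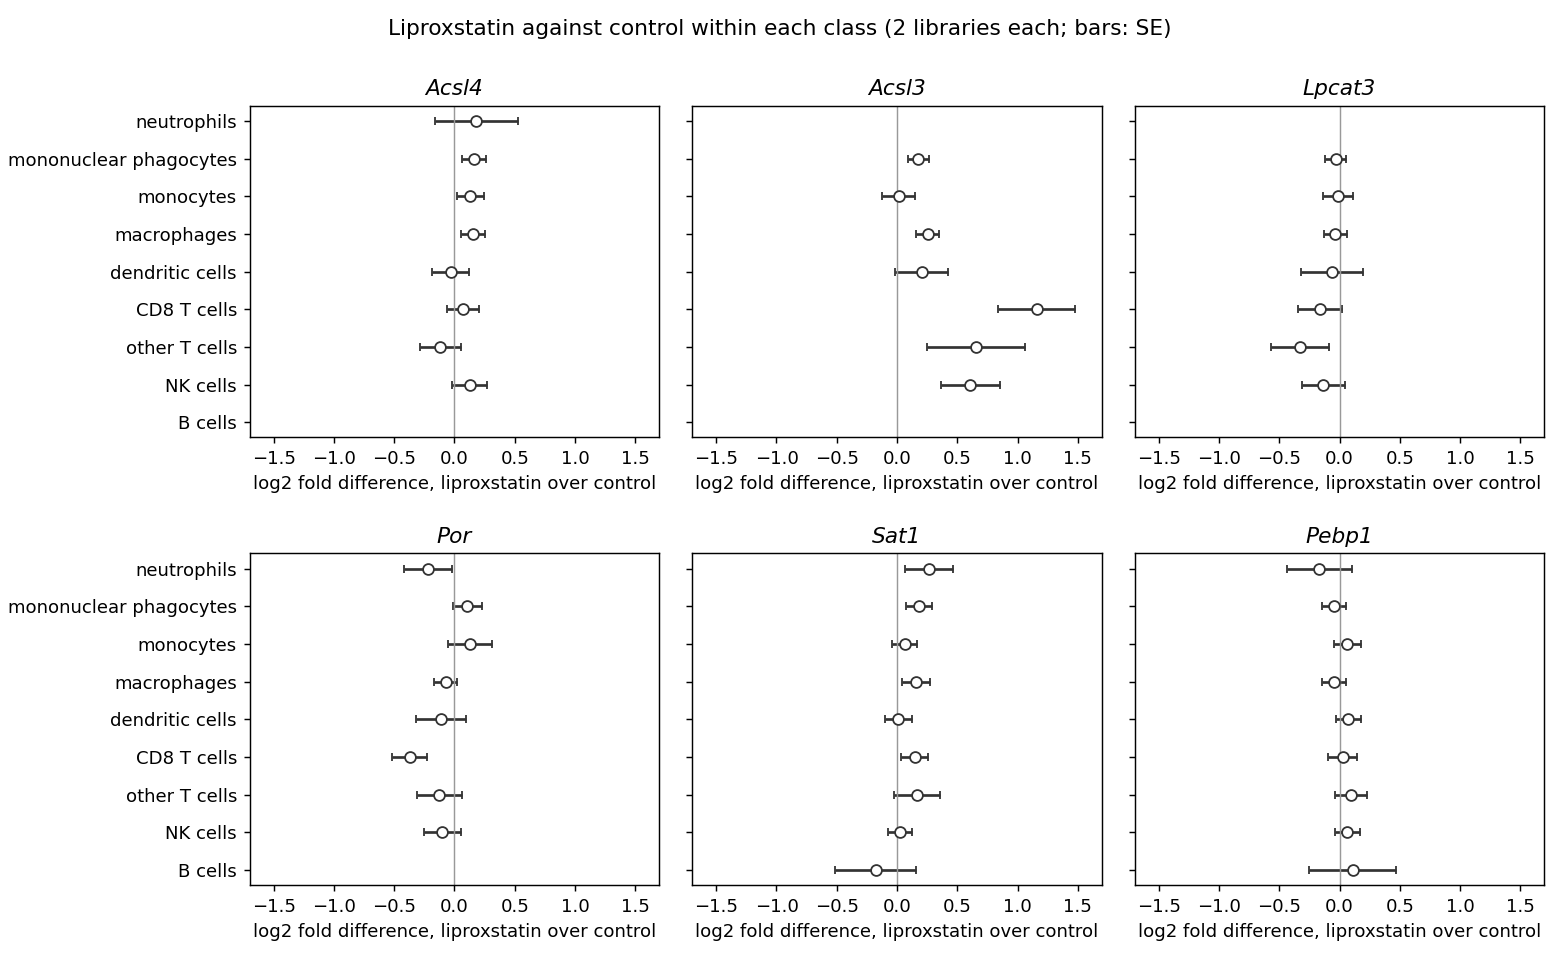
Log2 difference of liproxstatin from control for Acsl4, Acsl3, Lpcat3, Por, Sat1 and Pebp1 in each class that could be tested. Points carry SE bars and compare 2 against 2 libraries. None passed the test, and the Acsl3 points lie above 0 in all classes tested, from 0.01 in monocytes to 1.16 in CD8 T cells. Alox15 is not drawn. It was tested in mononuclear phagocytes (-2.60), monocytes (-4.88) and macrophages (-1.75) and did not pass.

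Acsl3 showed the same direction, higher under liproxstatin, in several of the classes tested. In neutrophils, where it was too low in count for the test, it lay the other way. It stood there at 5.72 and 2.94 CPM in the controls and at 1.46 and 0 CPM under liproxstatin, on 10 UMIs. In CD8 T cells it stood at 3.57 and 1.79 CPM in the controls and at 5.70 and 5.08 CPM in the liproxstatin libraries, on 17, 21, 73 and 69 UMIs. The difference was 1.16 ± 0.32 log2 units, which missed the threshold (edgeR adjusted p = 0.0728; unadjusted p = 0.00123). Without control 1 it passed, at 1.59 (edgeR adjusted p = 8.13e-04), and over all alternatives its adjusted p ran from 8.13e-04 to 0.844. In NK cells the values were 7.08 and 5.15 CPM against 8.58 and 9.46 CPM (0.61 ± 0.25, edgeR adjusted p = 0.606), and in other T cells 2.61 and 8.75 CPM against 9.13 and 11.3 CPM (0.66 ± 0.41, edgeR adjusted p = 0.693). Macrophages gave 0.25 ± 0.09 (edgeR adjusted p = 0.259), dendritic cells 0.20 ± 0.22 and monocytes 0.01 ± 0.14. The groups did not overlap for Acsl3 in CD8 T cells, NK cells, other T cells, macrophages and dendritic cells. Of all genes tested, 40.8, 37.4, 38.4, 42.5 and 38.6% did not overlap in these classes. The classes come from the same 4 libraries and are not independent.

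CD8 T cells had 6 genes tested and 2 with an unadjusted p under 0.05, Acsl3 and Por. Por stood at 29.4 and 28.5 CPM in the controls and 24.5 and 20.2 CPM under liproxstatin there (-0.37 ± 0.14, edgeR adjusted p = 0.304). By edgeR 0 passed, and by DESeq2 0, where 1.27% of all genes tested passed. NK cells and macrophages had 1 gene each with an unadjusted p under 0.05, in both Acsl3, with 0 called by edgeR and DESeq2 of 6 and 7 tested (0.0842 and 1.03% of all genes passed). An unadjusted p under 0.05 was given by 10.6% of all genes in CD8 T cells, 7.39% in NK cells, 12.4% in macrophages and 8.31% in monocytes.

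Alox15 was the gene of monocytes with an unadjusted p under 0.05. They held 25 and 15 Alox15 UMIs in the controls and 0 and 2 in the liproxstatin libraries, or 2.09, 0.882, 0 and 0.0860 CPM, which gave -4.88 ± 0.88 log2 units (edgeR adjusted p = 0.167). It passed without control 1 (-4.18, edgeR adjusted p = 0.00378) and without control 2 (-5.48, 3.95e-08), and over all alternatives its adjusted p ran from 3.11e-08 to 0.9999. The 42 UMIs lay in 7 of 4750 cells, 24 of them in a single cell. In mononuclear phagocytes together Alox15 gave -2.60 ± 1.26 (edgeR adjusted p = 0.466). Without control 2 this became a call at -3.47 (edgeR adjusted p = 1.11e-11), and Alox15 was then also called in macrophages. Over all alternatives its adjusted p in mononuclear phagocytes ran up to 0.691. Of the 7 genes tested in monocytes 0 passed by either tool, where 0.0741% of all genes did. The groups did not overlap for 1 of these 7, Alox15, where 40.2% of all genes tested in monocytes did not overlap.

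Dendritic cells and other T cells had 6 genes tested and B cells 2, with 0 called by edgeR or DESeq2 and 0 at an unadjusted p under 0.05. The shares of all genes called in these classes were 0.171, 0.0726 and 0.0%. In other T cells Sat1 passed without control 1 (edgeR adjusted p = 0.00787). The Mmp12 cluster, which was added after the data were seen, had 6 tested and 0 called, with Acsl3 at 0.29 ± 0.14 (edgeR adjusted p = 0.382).

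Whether neutrophils responded differently from mononuclear phagocytes was tested as a difference of differences. Of 7 genes tested 0 passed by edgeR, with 1 at an unadjusted p under 0.05, where 0.378% of 13478 genes passed. That 1 was Alox15, whose neutrophil UMIs were 0, 0, 0 and 3, so its value is not given. Sat1 differed by 0.17 ± 0.22 log2 units, Acsl4 by 0.11 ± 0.32, Pebp1 by -0.01 ± 0.29 and Por by -0.23 ± 0.24. Lpcat3 (0.26 ± 0.64) and Acsl3 (-1.98 ± 1.11) rested on few neutrophil UMIs.

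The 63 other genes of these pathways, counted by lists, differed between neutrophils and mononuclear phagocytes in both directions. Of 49 tested, 16 were higher and 22 lower in neutrophils, beside 27.9% higher and 42.1% lower over all genes. All 6 tested genes of polyunsaturated fatty acid synthesis were lower, with a median of -2.44 beside -0.62 over all genes. They included Fads1 and Fads2, the delta-5 and delta-6 desaturases, at -3.12 and -2.11 log2 units, the dehydratase Hacd3 at -3.51 and the reductase Hsd17b12 at -2.77. Fads1 gave 18 and Hsd17b12 53 UMIs in neutrophils, and Fads2 and Hacd3 gave 4 and 3.

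Of 8 oxygenation genes tested, 5 were higher and 2 lower, with a median of 1.18. Ptgs2, the inducible cyclooxygenase, was higher by 5.24 log2 units, and Alox5, the 5-lipoxygenase of leukotriene synthesis, by 2.30. Alox5 stood at 45.8, 41.1, 41.5 and 45.8 CPM in neutrophils and 13.5 to 20.01 CPM in mononuclear phagocytes, without overlap. Cybb, the catalytic subunit of the phagocyte NADPH oxidase, was lower by -2.70.

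Fatty acid activation and transport had 8 genes tested, 4 higher and 2 lower, with a median of 0.62. The transporter Slc27a4 was higher by 3.76 log2 units and its relative Slc27a1 lower by -2.75, while the long chain acyl-CoA synthetase Acsl1 was higher by 1.79 and Acsl5 lower by -1.26. Without normalization factors the count was 2 higher and 2 lower. Of 11 acyltransferases and phospholipases, 3 were higher and 6 lower, with a median of -1.93. Mboat7, which places arachidonate in phosphatidylinositol, was higher by 2.80, while Mboat1 (-3.19), Lpcat1 (-2.64) and Agpat3 (-2.41) were lower.

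Polyamine metabolism, the pathway of Sat1, had 10 genes tested, 3 higher and 4 lower, with a median of -0.21. Spermine oxidase, Smox, was higher by 4.37 log2 units, at 611 to 991 CPM in neutrophils and 51.2 to 69.1 CPM in mononuclear phagocytes. Polyamine oxidase, Paox (-2.81), and spermidine synthase, Srm (-2.72), were lower. Sat2, a relative of Sat1, gave 0 UMIs in neutrophils and 3.21 CPM in mononuclear phagocytes, at least 5.56-fold lower (against a floor of 3 counts over the class). Without factors 3 polyamine genes were higher and 7 lower. Ether lipid synthesis, which makes another oxidisable lipid class, had 6 tested, 1 higher (Tmem189, the plasmanylethanolamine desaturase, by 2.50) and 2 lower (Gnpat by -1.76 and Pex3 by -1.06), with a median of -0.35. Without factors it was 1 higher and 4 lower.

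Liproxstatin-1 called 0 of these pathway genes in any class by edgeR's test, with 29 tested in neutrophils and 54 in mononuclear phagocytes. In neutrophils 3 of them had an unadjusted p under 0.05 and 0 passed in DESeq2, and in mononuclear phagocytes 11 had one and 1 passed in DESeq2. Over all genes tested, 8.17% in neutrophils and 15.3% in mononuclear phagocytes had an unadjusted p under 0.05, and 0.103 and 3.18% passed in DESeq2, so these counts are near the background. That gene was Pla2g7, a secreted phospholipase that hydrolyses oxidised phospholipids. It stood at 227 and 221 CPM in the control and 298 and 268 CPM in the liproxstatin mononuclear phagocytes, without overlap. DESeq2 gave 0.38 ± 0.09 log2 units (adjusted p = 0.00331) and edgeR 0.39 ± 0.09 (adjusted p = 0.0604). DESeq2 called it in macrophages as well (adjusted p = 0.00408; edgeR 0.0557), and no pathway gene in the other 7 classes.

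For each of the 6 genes with a mean of at least 10 CPM, the genes with the most similar levels were found over 48 sums (12 classes and clusters in 4 libraries) among 7773 genes, by Pearson's r of log2(CPM + 1). The sums of a class share its cells' depth and the libraries, so r describes a pattern of levels. Sat1 was nearest to Msrb1 (r = 0.945), Clec4d (0.937) and Sdcbp (0.933), and Por to Klf7 (0.885), Ero1l (0.875) and Tlr4 (0.873). Pebp1 was nearest to Hspd1 (0.944), Lyar (0.938) and Slc25a4 (0.933), and Lpcat3 to Ier3ip1 (0.872), Ywhab (0.871) and Tmem9 (0.865). Acsl4 and Acsl3 had less similar neighbours, Snx4 (0.769), Mapre2 (0.745) and Sgcb (0.741) for the former and Ipo4 (0.777), Tspan17 (0.774) and Plpp2 (0.772) for the latter.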

How the data were processed

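UMI counts per gene and cell were used as the authors deposited them, in a matrix per library; Cell Ranger 6.1.1 is given per the file headers, Cell Ranger 4 with mm10 per the submitters' processing notes, and intron counting is not given in the sources used here. Cells with at least 200 genes and under 15% mitochondrial UMIs were kept (27447 of 29092 barcodes). Scrublet scores removed the highest-scoring cells up to 0.8% per 1000 barcodes in each library, because its own threshold marked few. Cells were clustered with scanpy 1.11.5 (3000 variable genes less those of the lists, ribosomal and similar genes, 2432 used; 40 components; Leiden resolution 1, 29 clusters) and named from 22 marker lists. The naming threshold was set after the clusters were seen, and 7 clusters have no name.

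Counts were summed per library and class (at least 20 cells) and tested with edgeR 4.0.16 in R 4.3.3 (filterByExpr, TMM, quasi-likelihood F test, Benjamini-Hochberg over all genes tested, threshold 0.05), 2 liproxstatin against 2 control libraries, or between classes with library as a block. Sensitivity was checked with DESeq2 1.42.0, without factors or filter, without each library, with doublets, other resolutions, equal cell numbers and less free RNA. The share of free RNA in neutrophils was estimated per library as the median, over the macrophage markers, of their level in neutrophils over that in the whole library. This counts all UMIs of these markers in neutrophils as free RNA. Markers above the median would give a larger share, so the shares given are estimates and not upper limits. With no vehicle, batch or extraction date in the labels, these cannot be told apart from the treatment. On simulated counts the treatment test in neutrophils recovered 39% of genes changed by 1 log2 unit and 90% of those changed by 2 (5603 genes), and the comparison with mononuclear phagocytes 68% and 80% (12333 genes). Both sides of each simulated comparison had the same mean levels except for 100 genes at each size, as many raised as lowered. In the data 70.0% of genes differed between these classes, so the class rates do not cover errors of scaling between them.

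All 9 genes are named. Other pathway genes are named where they passed the test, the largest differences first and at most 4 per list, except for a gene that is not reported here. The 9 genes and the lists were chosen with earlier results of these data known. Sequences and gene spans are from RefSeq (GRCm38.p6) and GENCODE M21. Intervals and limits from counts cover counting error only.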

Additional observations from a re-analysis of the deposited data

Results flagged for a closer look

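The response to liproxstatin differed between neutrophils and mononuclear phagocytes for 2 of the 50 pathway genes tested, by edgeR's test of the difference itself, beside 0.378% of all 13478 genes tested. DESeq2 called 0 of the 50, and edgeR called neither of the 2 for treatment within either class. Ptgs2, the inducible cyclooxygenase, differed by -1.24 ± 0.22 log2 units (SE; edgeR adjusted p = 3.37e-05). It stood at 3471 and 2140 CPM in control and 2570 and 2157 CPM in liproxstatin neutrophils, and at 136, 45.4, 200 and 134 CPM in mononuclear phagocytes, where control 2 was the lowest of the 4. DESeq2 did not call it (adjusted p = 0.959), and edgeR did not without liproxstatin 1 (-1.17) or liproxstatin 2 (-1.21), at resolution 0.5 (-1.11) or with the Mmp12 cluster counted as macrophages (-1.11). Without control 1 it was -1.76 and without control 2 -0.73. The treatment difference of Ptgs2 was -0.25 ± 0.23 within neutrophils (edgeR adjusted p = 0.880) and 0.92 ± 0.81 within mononuclear phagocytes (0.704). Ptgs2 was among the leading genes of the monocytes led by Cxcl3 and F10. They were 314, 553, 823 and 898 of the 1669, 3097, 3370 and 3953 mononuclear phagocytes, in the library order above. Their part in the difference was not tested.

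Cybb, the catalytic subunit of the phagocyte NADPH oxidase, differed by -1.10 ± 0.29 (edgeR adjusted p = 0.0395). It stood at 51.5 and 62.2 CPM in control and 41.5 and 21.1 CPM in liproxstatin neutrophils, and at 470 and 435 against 547 and 506 CPM in mononuclear phagocytes. The treatment difference of Cybb was -0.85 ± 0.32 within neutrophils (edgeR adjusted p = 0.493) and 0.27 ± 0.10 within mononuclear phagocytes (0.214). Free RNA could account for 36.6 to 93.6% of the Cybb UMIs in neutrophils, most in liproxstatin 2, and its part in the difference was tested only as an alternative, at -2.14 (edgeR adjusted p = 2.61e-04). The call was lost with DESeq2 (adjusted p = 0.999), with no filter (-1.04), without control 2 (-0.68), liproxstatin 1 (-1.73) or liproxstatin 2 (-0.59), with doublets kept (-0.67), at resolution 0.5 (-0.99), with a marker gate per cell (-0.42) and with the Mmp12 cluster counted as macrophages (-0.99).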

How the results depend on the processing

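Por, Sat1 and Pebp1 kept their direction and their call against all 8 classes under every alternative run, and Acsl3 and Lpcat3 did so against mononuclear phagocytes. Among those of the 9 genes that could be tested for treatment in a class, the count of calls moved from 0 to 1 as follows. It ran from 0 to 1 when libraries were left out in turn in mononuclear phagocytes, macrophages and monocytes (Alox15), CD8 T cells (Acsl3) and other T cells (Sat1); the lone library of a group is then assumed to vary like the other group. With no filter it was 1 in monocytes (Alox15) and 1 in CD8 T cells (Acsl3), where the cause was not tested. Against CD8 T cells, 5 genes passed without normalization factors (Acsl4 and Lpcat3 added) and 5 with no filter (Alox15 and Slc27a2 added), against 3. Against NK cells 7 passed with no filter, against 4.

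With the replicate number as a block the count was 1 in mononuclear phagocytes (Alox15 at -2.68, edgeR adjusted p = 5.87e-04), 1 in macrophages (Alox15) and 1 in CD8 T cells (Acsl3 at 1.12, 0.0135). Deviations of same-numbered libraries correlated at -0.01 in neutrophils and 0.10 in mononuclear phagocytes, over 2 pairs, so the numbers were not taken as pairs. Replicate numbers follow the sample titles; the deposited files of control 2 and of both liproxstatin libraries carry other numbers in their names. The block left the calls at 0 in the other 6 classes.

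Acsl4 changed sign most often. Without factors it was -0.60 against mononuclear phagocytes, -0.56 monocytes, -0.62 macrophages, -0.27 dendritic cells, -0.66 CD8 T cells, -0.22 other T cells and -0.067 NK cells. With no filter it was -0.014, -0.13, -0.024 and -0.025 against mononuclear phagocytes, monocytes, macrophages and CD8 T cells. Against mononuclear phagocytes it was -6.17e-05 with doublets kept, -0.072 at resolution 2 and -0.26 with less free RNA. Leaving out libraries, Acsl4 ran from -0.12 to 0.35 against macrophages, from -0.12 to 0.38 against CD8 T cells, from -0.49 to 0.59 for treatment in neutrophils and from -0.52 to 0.42 for the difference in response. Acsl3 against CD8 T cells ran from -0.87 to 0.49. For treatment in mononuclear phagocytes, Lpcat3 ran from -0.10 to 0.030, Por from -0.11 to 0.28 and Pebp1 from -0.18 to 0.066. The difference in response of Pebp1 was 0.043 with no filter, 0.041 at resolution 0.5, 0.038 with the Mmp12 cluster counted as macrophages, 7.60e-04 with less free RNA and 0.069 with the marker gate, and ran from -0.14 to 0.19 without a library; that of Sat1 ran from -0.14 to 0.50.

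The marker gate per cell and the Mmp12 cluster as macrophages were added after seeing the data. Over all genes, treatment calls ranged with the setting from 0 to 278 in neutrophils (13 as reported), 0 to 1066 in mononuclear phagocytes (259), 0 to 401 in monocytes (9), 1 to 600 in macrophages (141), 5 to 184 in dendritic cells (17), 40 to 465 in CD8 T cells (148), 0 to 408 in other T cells (7), 2 to 611 in NK cells (9), 0 to 156 in B cells (0) and 6 to 946 in the Mmp12 cluster (14). Those for the difference in response ranged from 1 to 139 (51), and 4848 genes differed between neutrophils and B cells with no filter (2804). The higher share of calls between classes fell from 42.6 to 23.7% against monocytes, 40.1 to 24.7% macrophages, 44.4 to 27.2% dendritic cells, 42.0 to 26.6% CD8 T cells, 44.1 to 24.9% other T cells, 42.4 to 25.9% NK cells and 48.9 to 38.9% B cells without factors. Few neutrophil UMIs limit Acsl3 (10), Lpcat3 (32), Slc27a2 (3), Alox15 (3) and Alox12 (0).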
